A study of Rattus norvegicus with 30 samples.

Results

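Cytochrome P450 enzymes of families 1 to 4 were followed in rat liver on 6 diets. The members were taken by name, as every gene whose array annotation gives 1 symbol starting with Cyp and a family number from 1 to 4; the rule itself reads no measured value. They comprised 42 of the 14217 genes named on the array, represented by 46 probe sets. Probe sets were tested when their mean log2 intensity over all arrays was above 7.388, the 40th percentile of all probe sets, which left 39 probe sets for 35 of the 10699 genes tested in all. The lowest members above that level were Cyp4f17, at a mean log2 intensity of 7.49, and the second probe set of Cyp4a8, at 7.59. The highest members below it were Cyp4f5, at 7.24, and Cyp2s1, at 7.13. Cyp1a1, Cyp2a3, Cyp2b12, Cyp2b21 and Cyp2g1 were also too dim to be tested.

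The animals were male Sprague-Dawley rats that arrived at 4 weeks of age, were adapted for 5 days on a commercial diet and then ate 1 of 6 diets for 14 days. Each diet had 5 animals, and each animal gave 1 array of total liver RNA. The casein diet (C) carried 200 g/kg of casein protein, and CI was that diet with an added isoflavone mixture. The soy protein diet (S) carried 200 g/kg of soy protein, and SI was that diet with added isoflavones. In T10, casein and freeze-dried tofu each gave 100 g/kg of protein, and in T20 tofu gave all 200 g/kg. The isoflavones of CI and SI were set to the level of T20, so SI and T20 share that level. They differ in the source of the protein and in any other component that tofu brings, and these cannot be told apart. Whole liver was measured, so fewer cells of a type and less RNA per cell cannot be told apart in any result.

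Cytochrome P450 enzymes are haem proteins of the endoplasmic reticulum that insert an oxygen atom into their substrates, using electrons passed on by P450 reductase. Families 1 to 3 handle drugs, plant compounds, steroids and arachidonic acid, and family 4 mainly hydroxylates fatty acids. In liver, the aryl hydrocarbon receptor switches on Cyp1a genes, the receptors CAR and PXR switch on Cyp2b and Cyp3a genes, and PPARα switches on Cyp4a genes. Several rat P450 genes also differ between the sexes under the control of growth hormone: Cyp2c11, Cyp2c13, Cyp2a2, Cyp3a2 and Cyp3a18 are typical of males, and Cyp2c12, Cyp2c7, Cyp2a1 and Cyp3a9 of females.

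The sequences upstream of 5 genes that passed tests below are shown first. They were picked with those results known. Cyp1a2, Cyp2d4 and Cyp3a23-3a1 rose in T20 against C, and Cyp2c7 and Cyp2c12 fell in S against C. These are not separate classes: Cyp2c7 also fell in T20 against C, and the dimmer probe set of Cyp2d4 also fell in S against C. They are RefSeq sequences of the GRCr8 assembly, 250 bases each, printed 5′ to 3′ on the strand of the gene and ending at the base before the annotated start of transcription. Cyp1a2 lies on the minus strand with its window at chr8:66978150-66978399, Cyp2d4 on the minus strand at chr7:115771822-115772071, and Cyp3a23-3a1 on the minus strand at chr12:14398804-14399053. The window of Cyp2c7 is on the plus strand at chr1:247966144-247966393, and that of Cyp2c12 on the minus strand at chr1:248677035-248677284. Capitals mark matches, on either strand, to 5 motifs: the core of the xenobiotic response element bound by the aryl hydrocarbon receptor (GCGTG), the nuclear receptor half-site (AGGTCA), the STAT palindrome (TTCNNNGAA), the HNF6 core (ATTGAT) and the HNF1 half-site (GTTAAT).
Cyp1a2: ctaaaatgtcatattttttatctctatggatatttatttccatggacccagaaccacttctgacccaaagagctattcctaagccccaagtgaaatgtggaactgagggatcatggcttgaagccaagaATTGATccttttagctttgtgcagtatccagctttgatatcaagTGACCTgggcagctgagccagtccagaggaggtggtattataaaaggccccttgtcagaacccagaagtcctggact
Cyp2d4: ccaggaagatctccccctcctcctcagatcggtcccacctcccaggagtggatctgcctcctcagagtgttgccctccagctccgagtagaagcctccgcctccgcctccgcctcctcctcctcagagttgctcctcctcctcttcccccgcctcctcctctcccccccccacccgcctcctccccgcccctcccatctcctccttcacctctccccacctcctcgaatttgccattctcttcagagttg
Cyp3a23-3a1: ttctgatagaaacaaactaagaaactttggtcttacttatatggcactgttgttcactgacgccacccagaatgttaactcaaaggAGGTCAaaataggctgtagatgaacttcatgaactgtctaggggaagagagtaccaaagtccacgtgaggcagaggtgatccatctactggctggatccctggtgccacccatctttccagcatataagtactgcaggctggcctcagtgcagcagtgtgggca
Cyp2c7: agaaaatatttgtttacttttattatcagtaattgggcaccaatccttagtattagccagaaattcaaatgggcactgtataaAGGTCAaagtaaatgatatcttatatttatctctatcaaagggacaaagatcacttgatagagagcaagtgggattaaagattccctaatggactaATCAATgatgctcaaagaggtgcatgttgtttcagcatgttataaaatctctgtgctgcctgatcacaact
Cyp2c12: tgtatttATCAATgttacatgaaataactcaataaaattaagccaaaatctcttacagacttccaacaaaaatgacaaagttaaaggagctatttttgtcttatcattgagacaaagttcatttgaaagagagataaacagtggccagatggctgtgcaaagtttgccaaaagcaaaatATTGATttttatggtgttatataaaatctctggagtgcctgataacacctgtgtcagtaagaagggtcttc

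In these windows no match overlapped another. Cyp1a2 held the nuclear receptor half-site from 77 to 72 bases and the HNF6 core from 121 to 116 bases before the start. Cyp2c7 and Cyp2c12, which are neighbours among the measured genes on chromosome 1, each held an HNF6 core from 71 to 66 bases before the start. Cyp2c12 had a second one from 243 to 238 bases, and Cyp2c7 had a nuclear receptor half-site from 167 to 162 bases. Cyp3a23-3a1 held that half-site from 164 to 159 bases, and the window of Cyp2d4 held none of the 5 motifs.

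Of the 42 genes, 35 had such a window. The half-site AGGTCA occurred in 34.3% of them, against 13.7% of all 27457 windows of that length, and the HNF6 core ATTGAT in 14.3% against 6.99%. The HNF1 half-site GTTAAT was in 11.4% against 6.46%, the STAT palindrome TTCNNNGAA in 8.57% against 7.52%, and GCGTG in 17.1% against 27.2%. These are matches of letters and say nothing of binding. The genes with the HNF6 core were Cyp1a2, Cyp2c12, Cyp2c13, Cyp2c7 and Cyp4f1. Cyp4v3, Cyp4f4, Cyp2a2, Cyp4a1, Cyp1a1, Cyp2c6v1 and Cyp4f17 had no entry in the table used.

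Over all 6 diets, 12 of the 39 probe sets (30.8%) passed the F test of limma at an adjusted p under 0.05, where 12.9% of all tested probe sets did. They belonged to 10 genes: Cyp1a2, Cyp2a2, Cyp2c7, Cyp2c12, Cyp2d4, Cyp2j3, Cyp2j10, Cyp3a23-3a1, Cyp4f4 and Cyp4v3. The smallest adjusted p was that of Cyp2c7 (3.48e-06), followed by Cyp2d4 (2.34e-05 and 3.21e-05 for its probe sets) and Cyp1a2 (3.95e-05). The call of Cyp2c12 was the weakest (0.0437) and was lost without any 1 of 21 of the 30 arrays, with an adjusted p of up to 0.0813. Cyp2a2 was lost only without S replicate 3 (adjusted p = 0.0508). The second probe set of Cyp4v3 was lost without any 1 of 5 arrays, which were S replicates 2 and 3 and T10 replicates 1, 3 and 5 (up to 0.0639). The male-typical Cyp2c11 did not pass (adjusted p = 0.351), and its diet means lay between 15.42 and 15.64.

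**Figure D1:**
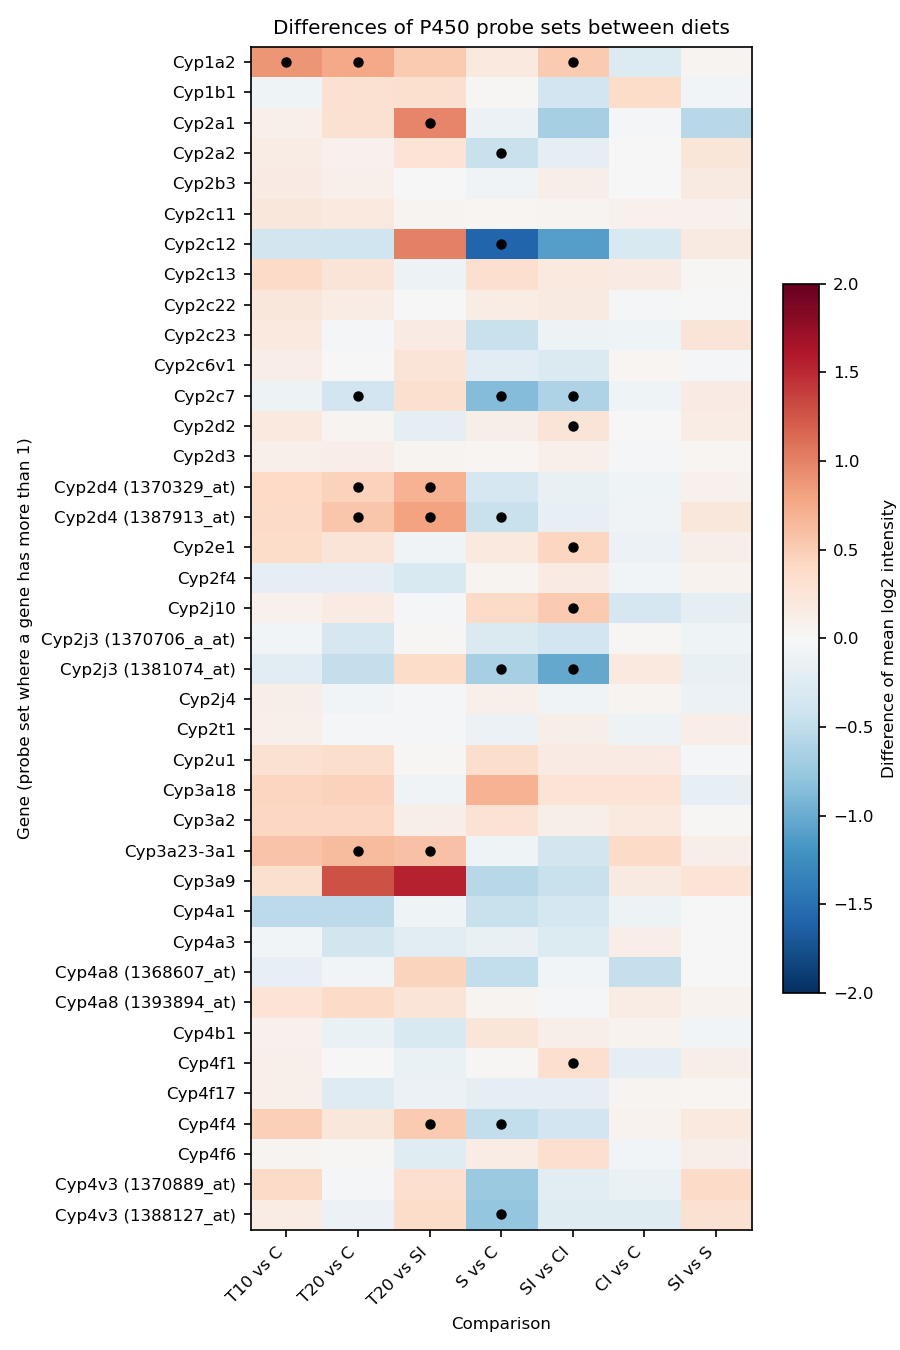
Difference of mean log2 intensity for each of the 39 tested P450 probe sets (rows) in 7 comparisons of diets (columns), red for higher and blue for lower in the diet named first. Black dots mark an adjusted p under 0.05 in limma. The columns for added isoflavone, CI against C and SI against S, carry no dot, and the dots of S against C all lie on blue cells.

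The median intensity per array lay between 216.9 and 254.7. T10 replicates 3, 4 and 5 had the highest 3′ to 5′ ratios of the GAPDH control probes, 1.32 to 1.58 against 0.97 to 1.25 on the other 27 arrays. The labels list identical normalization parameters for C replicate 3 and for CI replicate 3, but the values of these arrays differ (r = 0.9663). The log2 sum of 7 hepatocyte markers lay between 18.67 and 19.13 over all arrays, from 18.72 to 18.96 in CI, from 18.86 to 19.13 in SI and from 18.72 to 18.97 in T20. None of the 7 passed the F test in limma, and 2 did at an unadjusted p under 0.05.

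The tofu diets were set against casein to ask which P450 genes differ between them. Tofu brings isoflavones, to whose T20 level CI and SI were set, and C has none added. The protein, the isoflavones and any other component of tofu therefore cannot be told apart in these comparisons. Cyp1a2, which oxidises caffeine and aromatic amines, rose on both tofu diets. Cyp2d4 and Cyp3a23-3a1, a drug and steroid hydroxylase inducible through PXR, rose on T20, and Cyp2c7, a retinoic acid hydroxylase, fell on T20. Of the 39 probe sets 5 (12.8%) passed in T20 against C, 4 higher and 1 lower, against 4.5% of all probe sets. With only the C and T20 arrays in the fit, 0 of the 39 passed in limma: the adjusted p was then 0.0645 for Cyp1a2, 0.12 and 0.099 for the probe sets of Cyp2d4, 0.131 for Cyp3a23-3a1 and 0.0907 for Cyp2c7. In T10 against C 1 (2.56%) passed, against 0.322% of all. The median difference over the members was 0.08 in T20 and 0.15 in T10, beside -0.01 and -0.03 over all probe sets. Both comparisons use the same casein arrays. The number of T20 calls was 3 without C replicate 1, C replicate 3 or T20 replicate 2, it was 2 without T20 replicate 1 or 3, and it was 1 without C replicate 5.

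Cyp1a2 read 13.34, 13.51, 13.74, 13.53 and 13.06 (log2 intensity) in the casein animals. In T10 it read 14.11, 14.43, 14.37, 14.18 and 14.52, and in T20 14.37, 13.67, 13.93, 14.40 and 14.59. Every T10 animal was above every casein animal, whereas T20 replicate 2 lay below the highest casein animal. The mean was 13.43 ± 0.26 (SD, n = 5) in C, 14.32 ± 0.17 in T10 and 14.19 ± 0.38 in T20. The log2 difference from C was 0.89 ± 0.16 (SE) in T10, a 1.85-fold level (adjusted p = 0.00821 in limma). It was 0.76 ± 0.16 in T20, a 1.69-fold level (adjusted p = 0.00737). Without T10 replicates 3, 4 and 5 the T10 difference was 0.84 with an adjusted p of 0.263.

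The related Cyp1a1, which the aryl hydrocarbon receptor induces most strongly, was too dim to be tested: its lowest and highest animals read 6.86 and 7.61 in C, 6.73 and 8.93 in T10 and 6.46 and 7.28 in T20. T10 replicate 5 was its single high array. Cyp1b1, the third gene of the family, read 7.81 ± 0.29 in C, 7.73 ± 0.15 in T10 and 8.11 ± 0.26 in T20 and did not pass.

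Of 7 tested genes outside the family that the aryl hydrocarbon receptor regulates or that serve it, 0 passed in limma in any of these tests of tofu. At an unadjusted p under 0.05 there were 2 in T20 and 0 in T10. The receptor itself, Ahr, had means of 8.34 in C, 8.89 in T10 and 8.76 in T20, and its partner Arnt 8.33, 8.23 and 8.11.

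Cyp1a2 is most abundant in the hepatocytes around the central vein, and some markers of that zone moved in the same arrays. Of 6 tested pericentral markers that are no P450 genes, 1 rose in T10 and 2 rose in T20, and none fell. Slc1a2, a glutamate transporter, had means of 6.99 in C, 8.18 in T10 and 8.68 in T20, and Oat, ornithine aminotransferase, 13.13, 13.90 and 14.21. The casein mean of Slc1a2 lay below the filter level of 7.388, so that gene was tested only through its levels on other diets. The summed level of the 6 markers ranged from 14.23 to 14.62 in C, from 14.70 to 14.97 in T10 and from 14.77 to 15.54 in T20, so the tofu arrays lay above the casein arrays. It is the log2 of summed intensities, so a bright marker such as Oat weighs far more in it than a dim one such as Slc1a2. Markers of other cell types moved too. Cd14, which the macrophage list holds, rose by 1.21 ± 0.21 in T10 (adjusted p = 0.00367) and by 0.73 ± 0.21 in T20 (adjusted p = 0.0404), while the other 5 macrophage markers passed in neither. The summed macrophage markers ranged from 13.60 to 13.74 in C, from 13.74 to 14.26 in T10 and from 13.74 to 14.05 in T20. Of 5 endothelial markers Lyve1 rose by 0.35 ± 0.10 in T20 (adjusted p = 0.0404) and none passed in T10. Their sum ranged from 13.30 to 13.51 in C, from 13.51 to 13.59 in T10 and from 13.46 to 13.67 in T20. Of 9 periportal markers Aldh1b1 fell by 0.89 in T10 (adjusted p = 0.0339), and none passed in T20. The part of all these markers in the tofu results was not tested.

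Cyp2d4, a CYP2D enzyme, has 2 probe sets, whose values correlated at 0.94 over the 30 arrays. Its brighter probe set read 10.50, 11.03, 10.84, 10.66 and 10.63 in C and 11.26, 10.92, 11.40, 10.93 and 11.44 in T20. The groups overlapped only through C replicate 2, which lay above T20 replicates 2 and 4. The difference was 0.46 ± 0.12 (adjusted p = 0.0232), and 0.56 ± 0.13 on the other probe set (adjusted p = 0.0146). On the brighter probe set the call was lost without C replicate 1 or 5 or T20 replicate 1, 3 or 5 (adjusted p of up to 0.0681), and on the other without C replicate 5 (0.0519). In T10 the brighter probe set read 11.07, 11.26, 10.86, 11.07 and 11.38, 0.40 ± 0.12 above casein and short of the threshold (adjusted p = 0.196). The other tested members of the subfamily, Cyp2d2 and Cyp2d3, did not pass on either tofu diet.

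Cyp3a23-3a1 read 14.00, 13.40, 13.38, 13.37 and 13.47 in C and 14.30, 14.38, 14.64, 13.59 and 13.85 in T20. All T20 animals lay above 4 of the 5 casein animals, and C replicate 1 stood high. The difference was 0.63 ± 0.16, a 1.55-fold level (adjusted p = 0.0249). It was lost without C replicate 3, 4 or 5 or T20 replicate 1, 2 or 3 (adjusted p of up to 0.0768). In T10 it read 13.87, 13.89, 14.24, 14.24 and 14.20, a difference of 0.57 ± 0.16 (adjusted p = 0.175). The other 3 tested genes of family 3 had positive differences in T20 as well and did not pass. They were 0.42 for the steroid 6β-hydroxylase Cyp3a2 and its relative Cyp3a18 at 0.46, and 1.27 for Cyp3a9. Cyp3a9 varied widely, from 7.99 to 10.16 in C and from 9.83 to 11.70 in T20.

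Cyp2c7 read 15.97, 15.76, 15.80, 15.55 and 15.85 in C and 15.49, 15.36, 15.43, 15.17 and 15.59 in T20. T20 replicate 5 alone lay above the lowest casein animal. The gene fell by 0.38 on the log2 scale (SE 0.11, adjusted p = 0.0461). That call was lost without any 1 of 8 of the 10 arrays, which were C replicates 1, 2, 3 and 5 and T20 replicates 1 to 4 (adjusted p of up to 0.11). With each array centred on its median the adjusted p was 0.0539, and the tofu calls were then 4 higher and 0 lower. No family 4 gene passed on a tofu diet against casein. Every T10 animal lay above every casein animal for Cyp4f4, with a difference of 0.47 ± 0.15 (adjusted p = 0.224). Cyp4a1, the main fatty acid ω-hydroxylase that PPARα induces, had differences of -0.52 ± 0.20 in T20 and -0.53 ± 0.20 in T10 (adjusted p = 0.137 and 0.358).

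T20 and T10 differ in the amounts of both tofu and casein protein, and so also in the isoflavones that tofu brings. None of the 39 probe sets passed between them in limma, and 0% of all probe sets did. At an unadjusted p under 0.05 there were 3 of the 39. The interval of the difference T20 minus T10 at 95% was -0.46 to 0.20 for Cyp1a2 and -0.27 to 0.40 for Cyp3a23-3a1. For the brighter probe set of Cyp2d4 it was -0.18 to 0.30, and for Cyp2c7 it was -0.51 to -0.06.

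**Figure D2:**
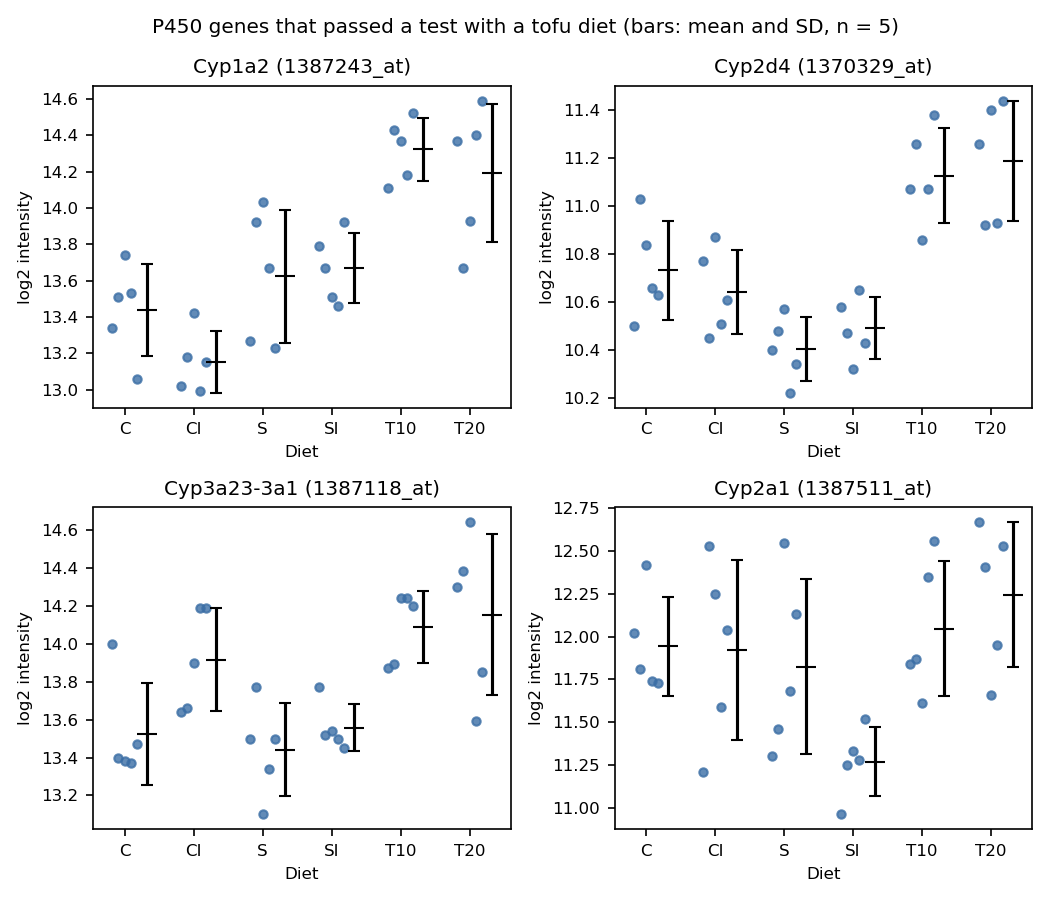
Log2 intensity of Cyp1a2, Cyp2d4, Cyp3a23-3a1 and Cyp2a1 on each of the 30 arrays by diet, as points, with the mean and SD of the 5 animals at the right of each group. Cyp1a2 lies at 14.11 or above in all T10 animals and at 13.74 or below in all casein animals, and Cyp2a1 is lowest in SI.

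T20 against SI compares tofu with soy protein at a matched isoflavone level. Here 5 of the 39 probe sets (12.8%) passed, all higher on T20, against 3.51% of all probe sets, among which 304 were higher and 349 lower. The members' median difference was 0.06 beside 0.02 over all. The genes were Cyp2d4 with both probe sets, Cyp2a1, Cyp3a23-3a1 and Cyp4f4. This comparison shares its T20 arrays with the one against casein. The number of calls was 2 without SI replicate 2 or T20 replicate 1, and 3 without SI replicate 4, SI replicate 5 or T20 replicate 3. With only the SI and T20 arrays in the fit it was 2, both of Cyp2d4.

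Zone and cell-type markers differed between these diets as well. The summed pericentral markers ranged from 14.18 to 14.40 in SI and from 14.77 to 15.54 in T20, with no overlap. Of the 6, Oat was 1.93 ± 0.23 higher on T20 (adjusted p = 3.96e-05), and the others did not pass. Of 9 periportal markers Aldh1b1 fell by 1.64 (adjusted p = 3.96e-05), and the summed level overlapped, from 17.05 to 17.46 in SI and from 17.08 to 17.40 in T20. Cd14 was 0.76 ± 0.21 higher on T20 (adjusted p = 0.0385), the macrophage sum running from 13.23 to 13.82 in SI and from 13.74 to 14.05 in T20. Of the 7 hepatocyte markers none passed, and 4 did at an unadjusted p under 0.05, with a median difference of -0.14. The part of these markers in the P450 differences was not tested.

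The brighter probe set of Cyp2d4 read 10.58, 10.47, 10.32, 10.65 and 10.43 in SI, so each T20 animal was above each SI animal. The difference was 0.70 ± 0.12, a 1.62-fold level (adjusted p = 0.00115), and 0.80 ± 0.13 on the other probe set (adjusted p = 0.00114). These calls were kept whichever array was left out. Cyp2a1, a testosterone 7α-hydroxylase, read 10.96, 11.25, 11.33, 11.28 and 11.52 in SI and 12.67, 12.41, 11.66, 11.95 and 12.53 in T20. The groups did not overlap, and the level was 1.97-fold (difference 0.98 ± 0.24, adjusted p = 0.0217). The call was lost without SI replicate 1 or 2 or T20 replicate 1 or 2 (adjusted p of up to 0.0764) and with only the SI and T20 arrays in the fit (0.0577). In casein animals Cyp2a1 read 11.94 ± 0.29 (SD, n = 5), between SI at 11.27 ± 0.20 and T20 at 12.25 ± 0.42.

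Cyp3a23-3a1 was 0.59 ± 0.16 higher on T20 than on SI (adjusted p = 0.0385), and Cyp4f4, of a subfamily that hydroxylates leukotrienes, 0.53 ± 0.15 higher (adjusted p = 0.041). The first was lost without SI replicate 2, 4 or 5 or T20 replicate 1, 2 or 3 (up to 0.107), and the second without SI replicate 2, 4 or 5 or T20 replicate 1, 3 or 5 (up to 0.118). With only the SI and T20 arrays in the fit they had 0.137 and 0.188, and after median centring of the arrays 0.0617 and 0.0823. Cyp3a9 read 8.36, 8.31, 9.42, 8.92 and 9.52 in SI and 9.95, 10.45, 11.70, 9.83 and 10.30 in T20. No SI animal reached the lowest T20 animal, and the 2.91-fold difference of 1.54 ± 0.46 had an adjusted p of 0.0557. Cyp1a2 was 0.52 ± 0.16 higher on T20 (adjusted p = 0.0696).

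Soy protein was set against casein without added isoflavones in S against C. Each P450 gene that passed was lower on soy protein: 7 of the 39 probe sets (17.9%) fell and 0 rose, where 7.25% of all probe sets passed, 556 higher and 795 lower. The median difference was -0.08 over the members and -0.04 over all. The genes were Cyp2c7, Cyp2c12, Cyp4v3, Cyp2j3, Cyp2d4, Cyp2a2 and Cyp4f4. With only the C and S arrays in the fit 4 fell and 1 rose.

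Markers of the liver zones passed in the same comparison. Of the 6 pericentral markers, Glul, glutamine synthetase, rose by 0.45 ± 0.12 (adjusted p = 0.0224) and Slc1a2 by 1.17 ± 0.23 (adjusted p = 0.00143), while Oat fell by 1.14 (adjusted p = 0.00248). The casein mean of Slc1a2 lay below the filter level. Of the 9 periportal markers Aldh1b1 rose by 1.21 ± 0.19 (adjusted p = 0.000186), and Gls2 and Ass1 fell by 0.48 and 0.56 (adjusted p = 0.0177 and 0.00248). The summed pericentral level ranged from 14.23 to 14.62 in C and from 14.22 to 14.37 in S, and the periportal one from 17.04 to 17.44 and from 16.98 to 17.15, so both overlapped. None of the hepatocyte, macrophage, endothelial and stellate markers passed in limma; at an unadjusted p under 0.05 there were 0, 2, 1 and 0. The part of these markers in the P450 results was not tested.

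Cyp2c7 read 14.83, 14.76, 14.69, 15.12 and 15.20 in S. Every S animal was below every casein animal, whose lowest was 15.55. The level in C was 1.82-fold that in S (difference -0.87 ± 0.11, adjusted p = 1.17e-05), a call that no alternative and no left-out array ended. Cyp2c12, a steroid sulfate hydroxylase of female liver, read 14.34, 13.22, 13.54, 13.11 and 13.52 in C and 12.45, 12.62, 9.96, 11.72 and 13.07 in S. The groups did not overlap, although S replicate 3 stood far below the rest. The level in C was 2.99-fold that in S (difference -1.58 ± 0.45, adjusted p = 0.0268). This call was lost without C replicate 1 or 3 or S replicate 3 or 4 (adjusted p of up to 0.0961), with C replicate 3 and CI replicate 3 both out (0.0536) and with only the C and S arrays in the fit (0.084).

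The rest of the Cyp2c subfamily did not pass in S against C. Cyp2c11, the testosterone hydroxylase of male liver, read 15.42 ± 0.19 in C and 15.46 ± 0.17 in S. The male-typical Cyp2c13 read 14.58 ± 0.28 and 14.91 ± 0.27, Cyp2c22 14.62 ± 0.23 and 14.77 ± 0.10, and the arachidonic acid epoxygenase Cyp2c23 14.44 ± 0.17 and 13.99 ± 0.24. Cyp2c6v1, which lies beside Cyp2c7 among the measured genes, read 15.09 ± 0.15 and 14.88 ± 0.08. The probe set of Cyp2c13 is of a kind whose probes can match more than 1 transcript, so its value may hold signal of related genes. The female-typical Cyp2c12 had a mean intensity of 8820 over all arrays, although the animals were male. Whether its probe set also holds signal of related genes was not tested.

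**Figure D3:**
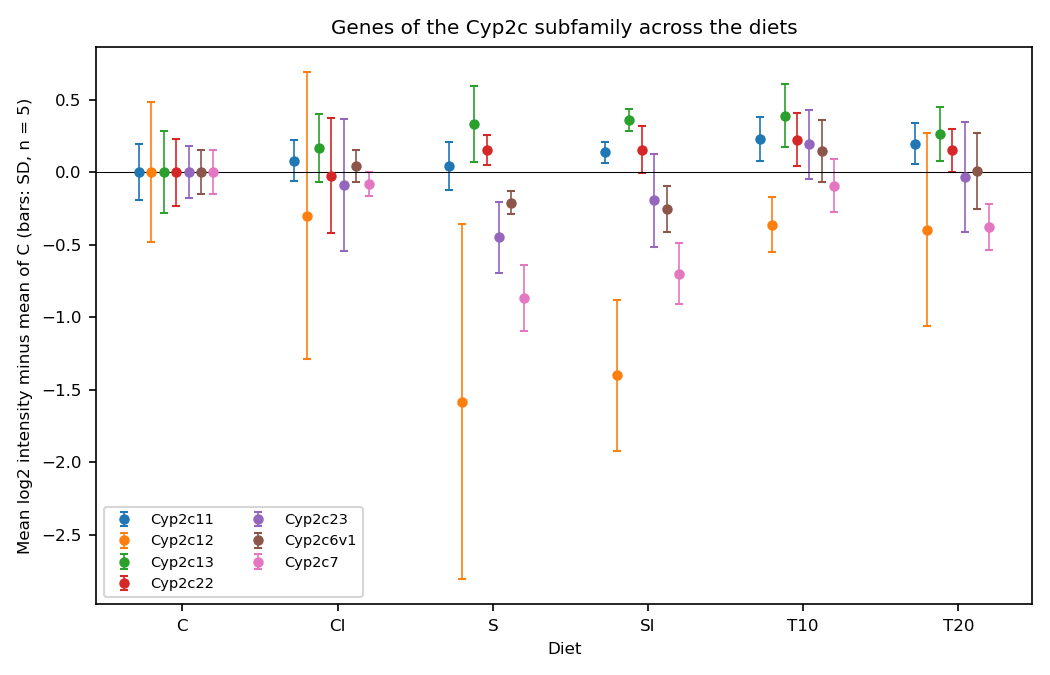
Mean log2 intensity of the 7 measured Cyp2c genes on each diet, as the difference from the mean of the casein animals, with bars of 1 SD (n = 5). Cyp2c7 and Cyp2c12 lie below the others on S and SI, and the SD of Cyp2c12 on S is 1.22.

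Cyp4v3, a fatty acid ω-hydroxylase, read 12.76, 12.68, 12.51, 12.66 and 13.20 in C and 11.97, 11.89, 11.72, 12.03 and 12.30 in S on its brighter probe set. The groups did not overlap, and the level in C was 1.71-fold that in S (difference -0.78 ± 0.17, adjusted p = 0.00471), whichever array was left out. Its other probe set gave -0.74 ± 0.25 and did not pass (adjusted p = 0.0673). Cyp2j3, an arachidonic acid epoxygenase, fell on the dimmer of its 2 probe sets, which read 10.27, 9.43, 9.86, 9.63 and 9.59 in C and 8.76, 9.29, 8.82, 9.17 and 9.37 in S. The difference was -0.67 ± 0.17 (adjusted p = 0.0141), lost only without C replicate 1 (0.0558) among the arrays. On the brighter probe set it read 12.01 ± 0.29 in C and 11.72 ± 0.28 in S and did not pass, so the probe sets of this gene disagree in their call. They correlated at 0.83 over the 30 arrays.

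The remaining calls were smaller and depended on single arrays. The male-typical Cyp2a2 read 13.85 ± 0.14 in C and 13.41 ± 0.30 in S (difference -0.44, adjusted p = 0.0333), lost without any 1 of 7 arrays, C replicates 1, 3 and 5 and S replicates 1 to 4 (up to 0.1). Cyp4f4 read 12.12 ± 0.19 and 11.62 ± 0.26 (difference -0.50, adjusted p = 0.0343), lost without C replicates 2, 3 or 4 or S replicates 1, 2 or 4 (up to 0.107). Cyp2d4 passed on the dimmer probe set only (difference -0.45, adjusted p = 0.034). That call was lost without any 1 of 7 arrays, C replicates 2, 3 and 4 and S replicates 1, 2, 4 and 5 (up to 0.104). With each array centred on its median, Cyp2a2 had an adjusted p of 0.0665 and Cyp4f4 of 0.06. With only the C and S arrays in the fit, Cyp2a2 had 0.0783 and the dimmer probe set of Cyp2d4 0.0594. The number of calls was 3 without C replicate 3 and 4 without S replicate 2 or S replicate 4. Cyp3a18, typical of males, went the other way: it read 12.58, 12.39, 12.38, 12.23 and 12.65 in C and 13.58, 13.02, 12.66, 13.01 and 13.43 in S. All S animals were above all casein animals, and the difference of 0.69 ± 0.29 did not pass (adjusted p = 0.16).

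SI against CI is the same exchange of protein with isoflavones added to both diets, on other animals. Again 7 of the 39 probe sets (17.9%) passed, where 11.6% of all did. Here 5 were higher and 2 lower on soy protein. The higher ones were Cyp1a2, Cyp2d2, Cyp2e1, Cyp2j10 and Cyp4f1, and the lower ones Cyp2c7 and Cyp2j3. This split depended on the scaling of the arrays: after quantile normalization 2 were higher and 4 lower, and with each array centred on its median 6 were higher and 2 lower. The median difference was -0.07 over the members and -0.02 over all.

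Cyp2c7 read 15.75, 15.73, 15.80, 15.59 and 15.66 in CI and 15.31, 15.20, 14.93, 14.80 and 15.19 in SI. Every SI animal was below every CI animal, and the level in CI was 1.53-fold that in SI (difference -0.62 ± 0.11, adjusted p = 0.000569). Cyp2j3 on its dimmer probe set read 9.71, 9.88, 10.12, 9.60 and 10.44 in CI and 9.12, 8.99, 9.06, 8.65 and 8.82 in SI. These groups did not overlap either, and the level in CI was 2.03-fold that in SI (difference -1.02 ± 0.17, adjusted p = 0.000329). Both calls were kept whichever array was left out. The brighter probe set of Cyp2j3 gave -0.39 ± 0.14 (adjusted p = 0.0697), and Cyp2c12 gave -1.10 ± 0.45 (adjusted p = 0.102).

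Cyp2j10, which lies near Cyp2j3 on chromosome 5 with Cyp2j4 between them, rose where Cyp2j3 fell. It read 7.16, 7.44, 7.50, 7.12 and 7.55 in CI and 7.74, 7.94, 7.77, 7.89 and 8.02 in SI, with no overlap. The difference was 0.52 ± 0.12, a 1.43-fold level (adjusted p = 0.00673), kept whichever array was left out. Cyp2j10 is dim, with a mean log2 intensity of 7.76 over all arrays. Its CI mean of 7.35 lay below the filter level of 7.388. It was too dim to be tested under the stricter filter among the alternatives. In S against C the difference of Cyp2j10 was 0.38 ± 0.12 (adjusted p = 0.0539).

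Cyp1a2 read 13.02, 13.18, 13.42, 12.99 and 13.15 in CI and 13.79, 13.67, 13.51, 13.46 and 13.92 in SI. The groups did not overlap, and the difference was 0.52 ± 0.16 (adjusted p = 0.0376). It was lost without CI replicates 1, 2, 4 or 5 or SI replicates 1, 2 or 5 (up to 0.105) and after quantile normalization (0.062). Cyp2e1, which oxidises ethanol and acetone, was 0.43 ± 0.13 higher on SI (adjusted p = 0.0336). It was lost without CI replicates 2, 4 or 5 or SI replicates 1, 2, 4 or 5 (up to 0.103) and after quantile normalization (0.0825).

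Cyp4f1, a fatty acid and leukotriene ω-hydroxylase, was 0.33 ± 0.09 higher (adjusted p = 0.0175), and lost without CI replicates 2 or 5 or SI replicate 5 (up to 0.0563) and after quantile normalization (0.0843). Cyp2d2, the main drug-metabolising CYP2D enzyme of rat liver, was 0.25 ± 0.08 higher (adjusted p = 0.0422). Its call was lost without CI replicates 2 to 5 or SI replicates 1, 2, 4 or 5 (up to 0.119) and with only the CI and SI arrays in the fit (0.104). The number of calls in SI against CI was 3 without CI replicate 5 or SI replicate 5 and 4 without CI replicate 2 or SI replicate 2. The summed pericentral markers ranged from 14.09 to 14.71 in CI and from 14.18 to 14.40 in SI, so they overlapped. Of the 6 markers 3 rose and 1 fell: Glul rose by 0.79 ± 0.12 (adjusted p = 0.000107) and Oat fell by 0.76 (adjusted p = 0.0334). Of the 9 periportal markers Aldh1b1 and Hal rose and Hsd17b13 fell. Of the 7 hepatocyte markers, Serpina1, the gene of α1-antitrypsin, rose by 0.24 ± 0.06 (adjusted p = 0.0157), which is close to the difference of Cyp2d2. At an unadjusted p under 0.05 there were 4 of the 7, and the list's median difference was 0.16, beside -0.02 over all probe sets. The part of these markers in the P450 differences was not tested.

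**Figure D4:**
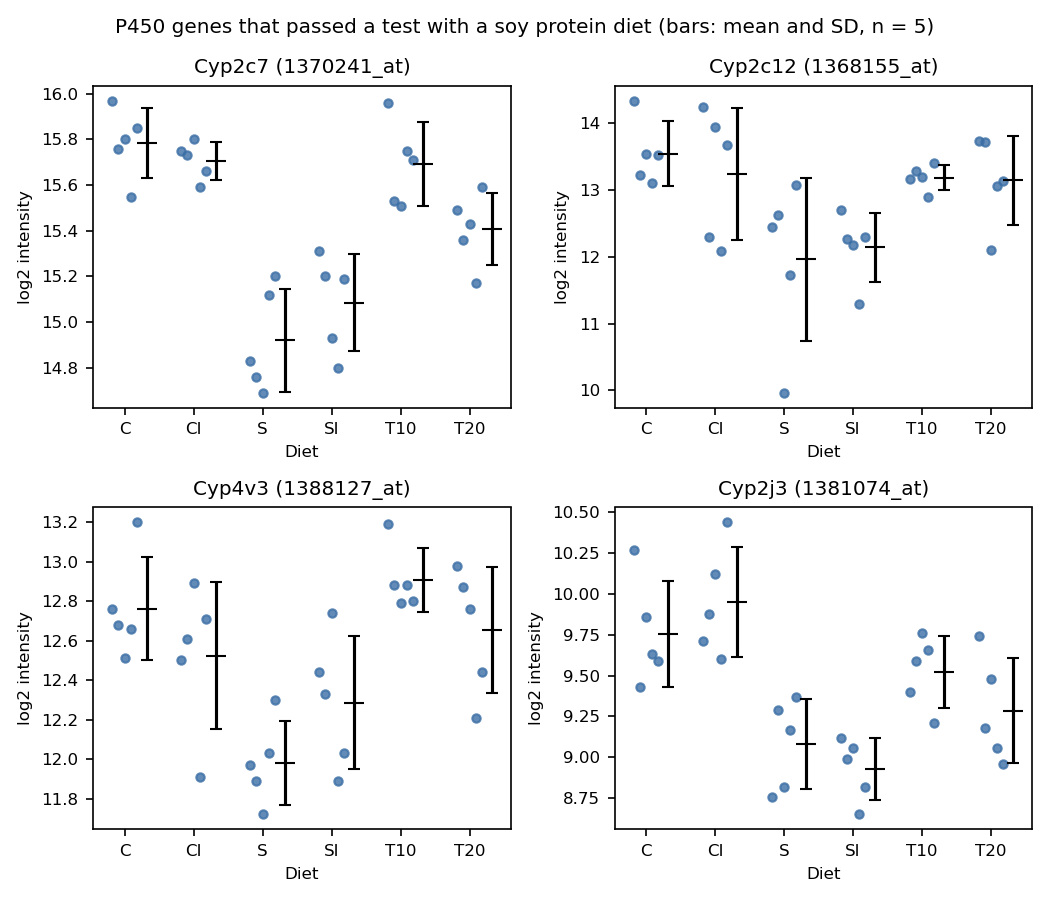
Log2 intensity of Cyp2c7, Cyp2c12, Cyp4v3 and the dimmer probe set of Cyp2j3 on each array by diet, as points, with the mean and SD of the 5 animals at the right of each group. The S and SI animals of Cyp2c7 lie at 15.31 or below and the C and CI animals at 15.55 or above.

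S against C and SI against CI share no arrays and can be set side by side. Cyp2c7 and the dimmer probe set of Cyp2j3 passed in both, which is 28.6% of the 7 calls in each. The brighter probe set of Cyp2j3 passed in neither. The share of calls common to both was not computed over all probe sets, so this overlap has no background beside it. The sign was the same for 34 of the 39 probe sets (87.2%), where it was the same for 63.9% of all tested probe sets. The differences correlated at 0.79 across the 39 probe sets and at 0.47 across all 18625; probe sets are not independent replicates, and the arrays of a comparison share their animals across genes. The difference between the 2 soy effects was tested as the interaction of protein and isoflavone. None of the 39 passed it in limma, 2 did at an unadjusted p under 0.05, and 0.0161% of all probe sets passed. A gene called in 1 of the comparisons and not in the other is thus not shown to differ between them.

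**Figure D5:**
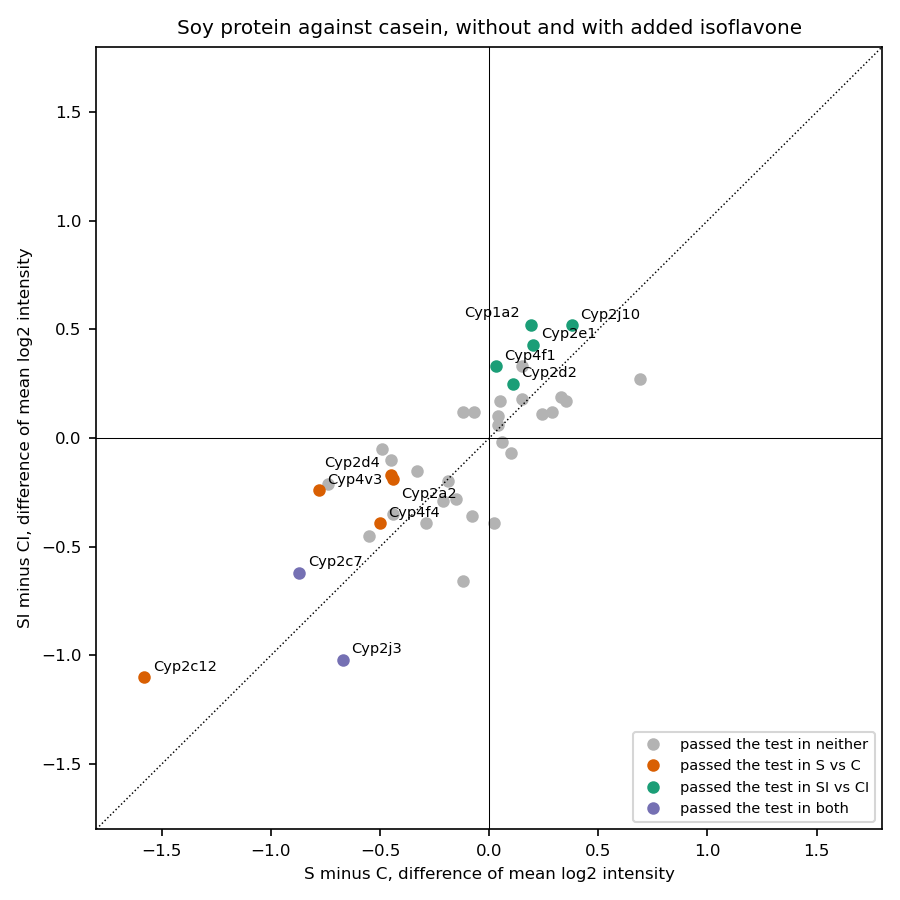
Difference of mean log2 intensity between soy protein and casein for the 39 P450 probe sets, without added isoflavone (S minus C, horizontal) and with it (SI minus CI, vertical), with the line of equality dotted. Colours mark the comparisons in which a probe set passed, and Cyp2c7 and the dimmer probe set of Cyp2j3 are the ones that passed in both.

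Added isoflavones were tested on each protein. In CI against C none of the 39 probe sets passed in limma, 4 did at an unadjusted p under 0.05, and 0% of all probe sets passed. In SI against S none passed, 2 did at an unadjusted p under 0.05, and again 0% of all passed. The smallest unadjusted p in these was 0.0126, for Cyp2j10 in CI against C, with a difference of -0.33 ± 0.12 (adjusted p = 0.483). The 95% interval of CI minus C was -0.61 to 0.05 for Cyp1a2 and 0.06 to 0.73 for Cyp3a23-3a1. For Cyp2c7 it was -0.31 to 0.14, and in SI minus S it was -0.06 to 0.39. These intervals are not adjusted for the number of probe sets, and that of Cyp3a23-3a1 lies above 0 (unadjusted p = 0.0222, adjusted p = 0.497).

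The genes whose pattern was most like that of Cyp1a2 over the 30 arrays were Cyp2e1 (r = 0.72), Cyp2d4 (0.66) and Cyp2j10 (0.45). Over the 6 diet means they were Cyp2d3 (0.94), Cyp2c22 (0.86) and Cyp2e1 (0.84). For Cyp2c7 they were Cyp2a2 (0.76), Cyp4v3 (0.74) and Cyp2c12 (0.72) over the arrays, and Cyp2c12 (0.96), Cyp4v3 (0.89) and Cyp2c6v1 (0.88) over the diet means. These values share arrays and normalization and are descriptions.

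Regulators and partners of the family were read from lists of genes outside it, whose counts stand beside the shares of all probe sets that passed. Those shares were 4.5% in T20 against C, 0.322% in T10 against C, 7.25% in S against C, 11.6% in SI against CI and 3.51% in T20 against SI. The medians over all probe sets were -0.01, -0.03, -0.04, -0.02 and 0.02. Among 14 tested receptors and targets of CAR and PXR, 1 rose in T20 against C and 2 in S against C, counts near the background. In SI against CI 4 rose. None fell in these comparisons, and the list's medians were 0.02, 0.18 and 0.21. In T20 against SI 2 fell and 0 rose. Nr1i3, the gene of CAR, had means of 9.09 in C, 9.14 in CI, 10.59 in S, 10.20 in SI, 10.39 in T10 and 10.50 in T20. It rose by 1.41 ± 0.33 in T20 (adjusted p = 0.0139), by 1.50 ± 0.33 in S (adjusted p = 0.00441) and by 1.06 ± 0.33 in SI against CI (adjusted p = 0.0357). Ces2c, a carboxylesterase, rose in both soy comparisons, by 0.59 and 0.83. Nr1i2, the gene of PXR, did not pass in the F test (adjusted p = 0.262). Cyp2b3, the tested Cyp2b gene, is a constitutive member that phenobarbital is not known to induce. It had means between 15.08 and 15.31 and passed in no comparison. Cyp2b1 and Cyp2b2 were not analysed here, as their probe set carries both symbols.

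Of 19 tested PPARα genes, 4 fell and 0 rose in T20 against C: Pdk4, Angptl4, Acot2 and Acadl, by 1.48, 1.25, 0.78 and 0.30, where 4.5% of all probe sets passed. In S against C 3 fell and 1 rose (7.25% of all), and in T10 against C 1 fell (0.322% of all). In SI against CI 2 fell and 1 rose, a share near the 11.6% of all probe sets. The list's medians were -0.11, -0.06, -0.17 and -0.11 in this order. The P450 targets of this receptor, Cyp4a1, Cyp4a3 and Cyp4a8, passed in no comparison. Cyp4a3 had diet means between 13.63 and 14.13.

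Of 18 redox partners and haem enzymes, 2 rose and 3 fell in S against C, where 7.25% of all probe sets passed, and the list's median was -0.08. Cyb5r3, which reduces cytochrome b5, fell by 0.58, and Ppox, of haem synthesis, fell by 0.60. Cpox, also of haem synthesis, rose by 0.39. In T20 against C Fech, ferrochelatase, rose by 0.37 and Pgrmc2, a haem-binding protein, fell by 0.41, beside 4.5% of all probe sets. In SI against CI Cpox and Fech alone rose and none fell, a share at the background of 11.6%. Por, the reductase that serves all these enzymes (adjusted p = 0.732 in the F test), and Alas1, the rate-limiting enzyme of haem synthesis (0.688), did not pass.

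Of 20 genes of the growth hormone signal and the liver factors behind sex-biased P450 expression, 4 fell and 0 rose in S against C: Ghr, Socs2, Onecut1 and Hnf4a. The share of all probe sets that passed there was 7.25%, and the list's median was -0.28. Ghr, the growth hormone receptor, fell by 0.42 there (adjusted p = 0.0203) and fell by 0.45 in SI against CI (adjusted p = 0.0103). Onecut1, the gene of HNF6, had means of 12.10 in C, 11.34 in CI, 8.60 in S, 9.63 in SI, 10.89 in T10 and 9.40 in T20, and fell by 3.50 in S against C (SE 0.89, adjusted p = 0.0137). In SI against CI Stat5b rose and Foxa1 and Ghr fell, a share near the background of 11.6%. None passed in either tofu comparison with casein in limma, and 3 in T20 and 0 in T10 did at an unadjusted p under 0.05.

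Outside the P450 family 1 female-biased gene could be tested. Prlr, the prolactin receptor, fell by 1.43 in T20 against C, fell by 2.07 in S against C and fell by 1.73 in SI against CI. Of 5 male-biased genes, Ust5r rose by 0.78 in S against C (adjusted p = 0.0246), where 7.25% of all probe sets passed. The others passed in no comparison. At an unadjusted p under 0.05 in limma, all 5 did in the F test. In T20 against C, T10 against C, S against C and SI against CI there were 3, 3, 2 and 3. The list's medians were 0.79, 0.51, 0.37 and 0.2 in this order, beside -0.01, -0.03, -0.04 and -0.02 over all probe sets.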

How the data were processed

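The authors deposited 1 linear intensity per probe set and array, normalized with the SuperNORM service per the labels' descriptions; the sources used here do not give the reference of that scale. Of 31099 probe sets, 57 controls were left out. Intensities ran from 0 to 129458.5 with 143 zeros, and those below 16 were set to 16 before taking log2. Differences are therefore on the scale of log2 intensity, and levels of different probe sets were not compared. The platform annotation names genes: 20832 probe sets carry 1 symbol, 436 carry several and 9831 carry none. The 4 P450 probe sets with several symbols were left out, and current records held the same symbol for all 42 genes. The array names no genome build here. The promoter windows are from RefSeq, matched by gene identifier.

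A model of diet means over the 30 arrays and 18625 probe sets was fitted with limma 3.58.1 (R 4.3.3), using a mean-variance trend and leaving 24 residual degrees of freedom. Benjamini-Hochberg adjustment ran over all of them within each comparison, and the tests were two-sided. The script was tested on simulated data. The tested probe set of highest mean stands for a gene. Named were the genes passing any test and a set of P450 genes chosen whatever their values. The members and lists were chosen with earlier results of these data known. Alternatives were quantile normalization, median centring, no filter or a 60th percentile filter, no trend, a floor of 64, array weights, a replicate block, only the compared groups, a threshold of 0.01, the mean of a gene's probe sets, leaving out single arrays, and leaving out C replicate 3 together with CI replicate 3. T10 replicates 3, 4 and 5 were left out after seeing the data. The number of arrays limits the precision. Per the labels, arrays of a diet are biological replicates. Plots were made in Python 3.11.15 with matplotlib 3.10.9.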

Additional observations from a re-analysis of the deposited data

Results flagged for a closer look

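Among 162 groups of 5 animals (27 genes on 6 diets), 11 had an animal standing apart from the other 4 by more than the critical gap of Dixon's test. Chance flags about 1 group in 20. Values are log2 intensities, and no cause was tested.

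Cyp2c13 read 15.07 in SI replicate 1, above the 14.88 to 14.92 of its group. Cyp3a23-3a1 read 14.00 in C replicate 1, above the 13.37 to 13.47 of its group. Cyp3a23-3a1 read 13.77 in SI replicate 1, above the 13.45 to 13.54 of its group. Cyp4v3 read 13.19 in T10 replicate 1, above the 12.79 to 12.88 of its group. The 2 flags of Cyp3a23-3a1 touch groups that its tofu comparisons use as controls.

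Cyp2c11 read 15.25 in CI replicate 2, below the 15.52 to 15.61 of its group. Cyp2c23 read 13.55 in CI replicate 1, below the 14.45 to 14.63 of its group. Cyp2d2 read 14.98 in C replicate 4, below the 15.28 to 15.36 of its group. Cyp2e1 read 14.98 in SI replicate 3, below the 15.35 to 15.46 of its group. Cyp2j10 read 7.50 in T10 replicate 4, below the 7.78 to 7.87 of its group. Cyp3a9 read 7.86 in CI replicate 2, below the 9.49 to 9.96 of its group. Cyp4a1 read 12.95 in C replicate 2, below the 13.44 to 13.63 of its group.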

How the results depend on the processing

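None of the called P450 differences reversed under the alternatives run; differences that did not pass were not followed. Of 25 calls of a probe set in a pairwise comparison, 9 were kept whichever array was left out. Of these, 7 were lost under no alternative that tested them. Cyp2j10 in SI against CI is among the 7 and was too dim for the stricter filter. In T20 against C the count of 5 became 3 without C replicate 3 and CI replicate 3 together, 1 at a threshold of 0.01 and 0 with only the compared groups, where Cyp1a2 had an adjusted p of 0.0645. In S against C the count of 7 became 3 without C replicate 3 and CI replicate 3 together and 2 at 0.01. In SI against CI the count of 7 became 4 with no filter and 3 at 0.01. In T20 against SI the count of 5 became 3 with median centring, 3 with no filter, 2 at 0.01 and 2 with only the compared groups. In T10 against C the count of 1 became 0 without T10 replicates 3, 4 and 5. The cause was not tested, except that the stricter threshold calls less by construction. The fits of only the compared groups estimate the spread anew from fewer arrays and need not call less.

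Leaving out each array in turn gave 10 to 15 calls in the F test, 1 to 5 in T20 against C, 1 in T10 against C, 3 to 7 in S against C, 3 to 8 in SI against CI and 2 to 7 in T20 against SI. The other comparisons stayed at 0 calls throughout. With the replicate number as a replicate block the counts were 15 in the F test, 5, 1, 8, 7 and 5 in these comparisons. Same-numbered arrays of different diets deviated together (correlation above 0.1) in 22 of 75 pairs, a count that was not made for differently numbered arrays. The correlations of same-numbered arrays ran from -0.28 to 0.35. Their median was 0.05, against -0.01 for differently numbered arrays. Over all probe sets 2964 passed the F test with the block and 2409 without it. The labels state no pairing, and whether the numbers stand for a shared block was not tested. Array intensities near the filter level limit what could be seen for the 7 dim probe sets.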

Other observations

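P450 genes of the other families were measured on the same arrays, and 11 of them were bright enough to test. In the F test 3 of the 11 passed, where 12.9% of all tested probe sets did. They were Cyp17a1, the steroid 17α-hydroxylase (adjusted p = 0.00372), Cyp20a1, an enzyme without a settled substrate (0.0041), and Cyp27a1, the sterol 27-hydroxylase of bile acid synthesis (0.0199). None of the 11 passed in T20 against C, T10 against C, S against C or T20 against SI. Cyp17a1 had means of 10.12 in C, 11.01 in CI, 10.04 in S, 9.88 in SI, 10.05 in T10 and 9.71 in T20. It fell by 1.13 in SI against CI (adjusted p = 0.00252), where CI was the highest diet. Cyp20a1 rose by 0.39 in that comparison (adjusted p = 0.00209). Cyp27a1 had means of 13.29 in C, 12.81 in S and 12.82 in SI and passed in no pairwise comparison. Cyp7a1, which starts bile acid synthesis from cholesterol, had means of 9.09 in C and 11.01 in T20 and did not pass the F test (adjusted p = 0.07).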
